A study of Mus musculus with 26 samples.

Results

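The lacrimal gland, the source of the watery and protein part of tears, was set against the submandibular gland, one of the major salivary glands, in BALB/c mice. The comparison took in every array titled as one of these glands, which was 12 of the 26 arrays of the series. There were 3 arrays of male and 3 of female lacrimal glands, and 3 arrays of male and 3 of female submandibular glands. Each array held RNA pooled from 5 animals, whose 10 glands were combined, and the pools A, B and C of a sex and gland came from different animals. BALB/c is an inbred laboratory strain. No treatment or engineered allele was named for any group, and the age of the mice was not given in the sources used here.

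Both glands are built of acini, which secrete a salty, protein-rich fluid when nerves release acetylcholine or noradrenaline, and of ducts, which carry that fluid to the surface. Salivary ducts are known for taking sodium and chloride back from the fluid and adding potassium and bicarbonate, with the epithelial sodium channel, CFTR and the sodium pump as their main transporters. In rodents the submandibular gland also has granular convoluted ducts, which store kallikreins and epidermal growth factor and are larger in males because androgens maintain them. In mice, androgens also act on the acinar cells of the lacrimal gland.

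Values are scaled intensities, on which the middle probe of each array lay near 1, and the level of a group is the geometric mean of its pools. Differences are lacrimal minus submandibular on the log2 scale with their standard error, and both sexes weigh equally unless a sex is named. A probe was called at an adjusted p under 0.05 and a log2 difference of at least 1 in either direction. Adjusted p-values come from a limma fit and the Benjamini-Hochberg method over 8211 probes. A gland is said to lie below the filter level for a probe when all its pools lay under the 30th percentile of their arrays. A difference against such a gland is given as a bound, set from the percentile itself. Each symbol stands for the probe annotated with it. For members of close families, among them the Klk1b kallikreins, Ly6f, Cyp4a12a, Cyp2b10, Akr1c18, Gsta3 and Amy1, it was not tested which relatives the probe also reads.

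The promoters of 4 genes are shown because they mark the extremes of the comparison. Sval2 had the highest level of the lacrimal products that were far lower in submandibular pools. Ly6f had the largest fitted gap between the sex differences of the glands among called probes with a symbol. The submandibular pools of Ly6f lay below the filter level. Klk1b24 and Klk1b5 are neighbouring kallikrein genes of the submandibular gland, of which only Klk1b24 had a called sex difference there. For Klk1b5 that test had little power, as described below. Each window runs 5′ to 3′ on the plus strand from 250 bases before to 50 bases after the annotated start, from RefSeq on GRCm38.p6. The windows are chr6:41860057-41860356 for Sval2, chr15:75268171-75268470 for Ly6f, chr7:44187986-44188285 for Klk1b24 and chr7:44216224-44216523 for Klk1b5. Capitals mark a match to AGAACA, a half-site of the androgen receptor, or to TATAAA, the TATA box.
Sval2: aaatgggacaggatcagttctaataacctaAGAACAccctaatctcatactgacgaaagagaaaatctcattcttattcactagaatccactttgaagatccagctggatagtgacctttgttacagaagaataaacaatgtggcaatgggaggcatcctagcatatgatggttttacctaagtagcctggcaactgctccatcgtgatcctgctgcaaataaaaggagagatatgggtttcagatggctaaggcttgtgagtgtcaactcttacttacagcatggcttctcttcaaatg
Ly6f: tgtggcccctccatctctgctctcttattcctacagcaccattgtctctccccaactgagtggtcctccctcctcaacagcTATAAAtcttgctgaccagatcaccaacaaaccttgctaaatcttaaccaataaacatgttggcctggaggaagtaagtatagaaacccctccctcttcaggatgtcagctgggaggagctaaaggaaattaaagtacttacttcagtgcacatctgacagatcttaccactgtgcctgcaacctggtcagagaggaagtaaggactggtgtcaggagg
Klk1b24: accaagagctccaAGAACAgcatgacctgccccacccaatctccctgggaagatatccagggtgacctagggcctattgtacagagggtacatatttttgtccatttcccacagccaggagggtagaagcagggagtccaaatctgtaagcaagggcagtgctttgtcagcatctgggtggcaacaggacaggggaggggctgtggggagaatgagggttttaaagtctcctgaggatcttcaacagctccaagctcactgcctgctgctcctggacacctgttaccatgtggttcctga
Klk1b5: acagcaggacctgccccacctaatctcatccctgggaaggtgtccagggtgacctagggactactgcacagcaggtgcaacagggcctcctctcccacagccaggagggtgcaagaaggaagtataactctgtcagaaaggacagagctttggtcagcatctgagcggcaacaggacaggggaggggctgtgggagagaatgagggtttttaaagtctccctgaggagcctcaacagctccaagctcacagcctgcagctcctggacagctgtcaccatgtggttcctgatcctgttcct
On either strand (AGAACA or TGTTCT), the half-site occurred in 6233 of 32851 mouse promoter windows of this length, or 18.97%. The TATA box (TATAAA or TTTATA) occurred in 4473 windows, or 13.62%. The Sval2 window held 1 half-site starting 220 bases before the start, the Klk1b24 window held 1 starting 237 bases before it, and the Ly6f window held 1 TATA match starting 169 bases before it. The Klk1b5 window held neither. The Klk1b24 and Klk1b5 windows aligned with 245 identical bases and 38 mismatches, or 86.57% identity over the aligned bases, with 34 bases in gaps. A match in a window is a description of its letters, since no binding was measured.

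The 6 lacrimal arrays were more variable than the 6 submandibular arrays, with a median SD between pools of 0.505 against 0.340 on the log2 scale. The male and female lacrimal pools C stood apart from the other 10 arrays, with lower quartiles of 0.462 to 0.514 against 0.225 to 0.323. The brightest probe of an array reached 498 to 868 on lacrimal and 280 to 510 on submandibular arrays. The Y-linked gene Eif2s3y lay above every female array on 6 of 6 male arrays. Pools of the same letter deviated together across glands and sexes, so fits with a block were also made. The fixed block was the letter within sex, which pairs the glands. The random block was gland and letter, which ties male and female pools of a gland but does not pair the glands. These fits are given beside the counts and calls they changed most.

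The glands differed at 1597 probes, or 19.4% of the 8211 tested. Of these, 901 (11.0% of those tested) were higher and 696 (8.48%) were lower in lacrimal. Without both lacrimal pools C the counts were 820 higher and 743 lower. With gland and pool letter as a random block they were 742 and 632. With the letter within sex as a fixed block they were 896 and 695. The lean toward higher values depended on scaling: the median over all probes was 0.148, against -0.0154 after quantile normalization, which gave 636 higher and 944 lower. Among the higher probes, 492 had no overlap between the pools of the glands, 52 differed by at least 4, and for 176 the submandibular gland lay below the filter level. Among the lower probes, 434 had no overlap, 42 differed by at least 4, and for 38 the lacrimal gland lay below the filter level. Lack of overlap alone was met by 8.20% of all probes in the higher and 6.42% in the lower direction. In bulk glands, fewer cells of a type and less RNA per cell cannot be told apart.

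Secretions that were higher in lacrimal included a small set of proteins that were bright in every lacrimal pool. Sval2, a seminal vesicle secretion-like protein, had 383, 505.6 and 658 in lacrimal pools (lowest, median, highest), against 0.380, 1.26 and 3.16 in submandibular pools. Csn1s2a, a casein, had 80.3, 122 and 346 in lacrimal pools, against 0.443, 0.771 and 0.956 in submandibular pools. Ltf, the iron-binding defence protein lactotransferrin, had 26.9, 62.5 and 103 in lacrimal pools, against 0.0768, 0.181 and 1.16 in submandibular pools. No pool of one gland reached the range of the other for any of these genes. The differences were 8.76 ± 0.31 for Sval2 (adjusted p 9.48e-15), 7.52 ± 0.29 for Csn1s2a (3.73e-14) and 8.06 ± 0.42 for Ltf (3.4e-12), with n = 6 pools per gland.

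Further secreted defence and transport proteins were higher in lacrimal. Hp (haptoglobin, which binds free haemoglobin) had 104, 329 and 438 in lacrimal pools, against 2.51, 3.97 and 7.16 in submandibular pools, a difference of 6.01 ± 0.25 (adjusted p 1.13e-13). Sftpd, a collectin that binds microbial sugars, had 4.42, 8.36 and 17.7 in lacrimal pools, against 0.231, 0.284 and 0.399 in submandibular pools (4.86 ± 0.28, adjusted p 1.67e-11). Dmbt1, a scavenger glycoprotein that binds bacteria, had 6.57, 16.4 and 32.4 in lacrimal pools, against 0.784, 0.841 and 1.22 in submandibular pools (4.21 ± 0.20, adjusted p 1.14e-12). All 3 separated the glands without overlap. Lpo, the antimicrobial lactoperoxidase, was bright in both glands. It had 360, 463 and 534 in lacrimal pools, against 116, 144 and 184 in submandibular pools, a difference of 1.68 ± 0.20 (adjusted p 1.2e-06) that became 0.79 after quantile normalization (adjusted p 0.000531; range over 25 alternatives 7.47e-07 to 0.000531) and was then not called.

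Of 22 probes kept for lacrimal secreted products, 9 were higher and 4 lower in lacrimal (median 0.61), beside 11.0% and 8.48% over all probes. After quantile normalization the count was 4 higher and 4 lower, and with gland and pool letter as a random block it was 6 and 4. Mucl1, a mucin-like protein listed as a lacrimal secretory marker, went the other way. It lay below the filter level in lacrimal, with 0.124, 0.242 and 0.379, against 0.415, 1.19 and 3.56 in submandibular pools, at least 2.64-fold lower (adjusted p 5.26e-07). Tcn2, the vitamin B12 carrier transcobalamin, was also lower in lacrimal (-1.21 ± 0.20, adjusted p 6.05e-05). Scgb1b2, a secretoglobin, had 475, 683 and 868 in lacrimal pools, against 216, 327 and 510 in submandibular pools. In each gland its highest pool matched the brightest value on the arrays of that gland. The Scgb1b2 difference of 0.97 ± 0.28 missed the minimum size. The probes of Csn1s2b, Lcn4, Lyz1, Lyz2, Wfdc18, Pltp and Apod, further milk, tear and lysozyme genes, were not called. Pip and Lcn11 were not analysed here.

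Secretions that were lower in lacrimal included products known from the granular convoluted ducts, among them Klk1b24 and Egf. Klk1b24, a kallikrein-family serine protease, had 218, 162 and 196 in male submandibular pools A, B and C and 7.78, 6.39 and 4.64 in female ones. In lacrimal pools it had 0.292 and 0.274 in males (A and C) and 0.139 and 0.524 in females (A and C), with pool B missing in both sexes. The gland difference was -6.95 ± 0.37 (adjusted p 1.77e-10). Egf, epidermal growth factor, had 1.86, 1.81 and 6.08 in male and 3.02, 4.67 and 6.83 in female lacrimal pools, against 200, 189 and 233 in male and 19.7, 18.4 and 8.46 in female submandibular pools. Even the lowest submandibular pool lay above the highest lacrimal one, and the difference was -3.95 ± 0.35 (adjusted p 1.91e-08). Muc13, a membrane mucin, had 0.145, 0.297 and 0.479 in lacrimal pools, against 2.73, 8.86 and 16.3 in submandibular pools. It was at least 17.2-fold lower in lacrimal (adjusted p 1.89e-10).

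Of 12 probes kept for submandibular secreted products, 3 were higher and 4 lower in lacrimal, with a median of -0.40 (1 higher and 3 lower with the random block). For comparison, 11.0% of all probes were higher and 8.48% lower. Of 6 probes kept for kallikreins, Klk1b24 and Klk1b5 were lower in lacrimal and 1 was called higher, with a median of 0.39 (-0.08 after quantile normalization). The higher call was Klk6 (1.08 ± 0.42, adjusted p 0.0492), below the filter level in both glands. It was lost under 18 of 25 alternatives, both blocks and 9 of the 12 single pools left out among them. Car6, the carbonic anhydrase secreted into saliva and tears, was bright in both glands and not called. It had 345, 476 and 538 in lacrimal pools, against 258, 346 and 489 in submandibular pools (0.43 ± 0.29, adjusted p 0.259). Crisp2, a cysteine-rich secretory protein listed with the submandibular products, was higher in lacrimal (2.18 ± 0.23, adjusted p 2.69e-07). Klk1, Ren1 and Smr3a were not analysed here.

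Several salivary secreted products varied widely among the lacrimal pools. Amy1, salivary amylase, had 229, 8.26 and 6.36 in male and 57.6, 362 and 57.2 in female lacrimal pools A, B and C, against 318, 167 and 159 in male and 273, 199 and 256 in female submandibular pools. Chia1, an acidic chitinase, had 92.4, 4.94 and 3.32 in male and 27.0, 285 and 37.5 in female lacrimal pools, against 173, 242 and 290 (lowest, median, highest) in submandibular pools. Klk1b5 had 14.2, 1.16 and 0.350 in male and 5.74, 88.9 and 2.42 in female lacrimal pools, against 223, 337.5 and 461 in submandibular pools. Chil3, a chitinase-like lectin, had 6.36, 0.329 and 0.607 in male and 1.49, 19.9 and 1.07 in female lacrimal pools, against 11.98, 27.4 and 33.5 in submandibular pools. In all 4, male pool A and female pool B were the high lacrimal pools of their sex. Amy1 and Chil3 were also bright in other salivary glands. In males and females, Amy1 had levels of 271.7 and 288.8 in parotid. Chil3 had 182.0 and 180.8 in parotid and 95.5 and 84.0 in sublingual, in the same order of sexes. Whether tissue of another gland was present in these lacrimal pools was not tested.

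The differences of these genes were -6.21 ± 0.74 for Klk1b5 (adjusted p 1.07e-06), -3.69 ± 0.64 for Chil3 (0.000123), -3.07 ± 0.67 for Chia1 (0.00113) and -2.17 ± 0.67 for Amy1 (0.0148). Without male lacrimal pool A they were -6.96 for Klk1b5, -4.33 for Chil3, -3.82 for Chia1 and -2.997 for Amy1. Without female lacrimal pool B they were -6.98 for Klk1b5, -4.36 for Chil3, -3.59 for Chia1 and -2.61 for Amy1. Without male lacrimal pool C the difference of Amy1 was -1.70 and the call was lost (adjusted p 0.0503; range over 25 alternatives 3.12e-05 to 0.146). Without both lacrimal pools C it was -1.48 (adjusted p 0.111). With gland and pool letter as a random block the call was lost too (adjusted p 0.146).

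**Figure D1:**
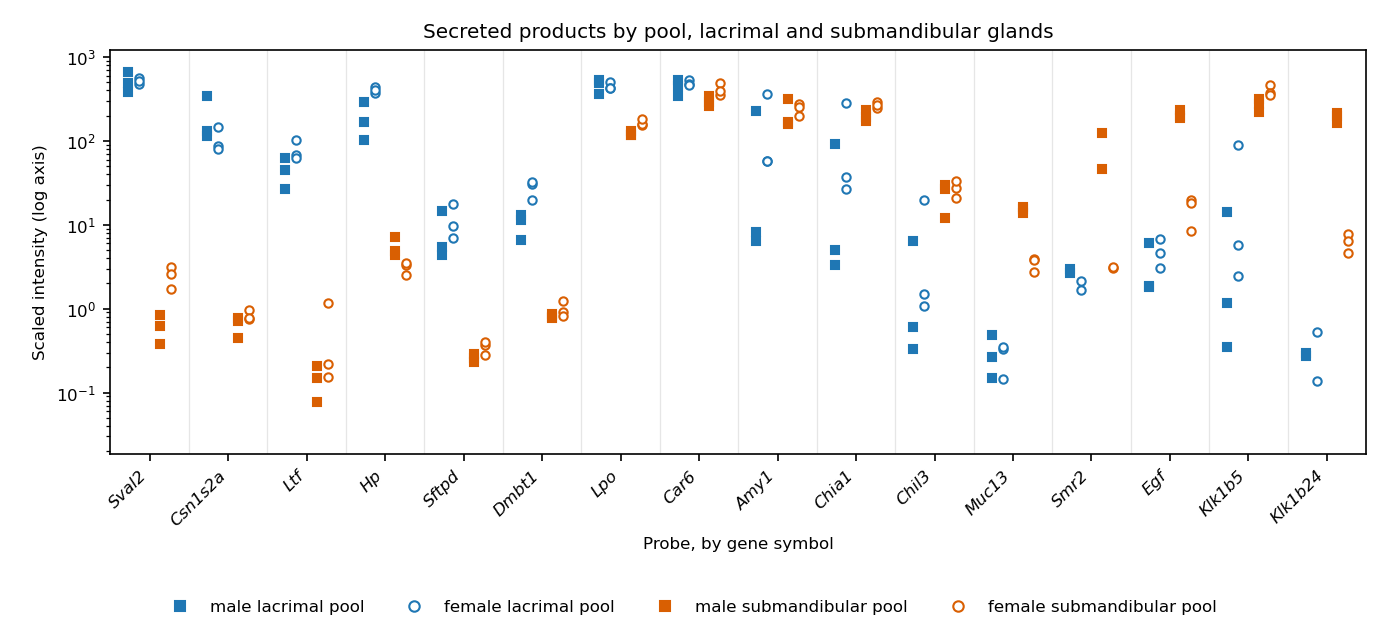
Scaled intensity of 16 secreted-product genes by pool, on a log axis, with lacrimal pools in blue at the left and submandibular pools in orange at the right of each panel; squares are male pools and open circles female pools. Sval2 ran from 383 to 658 in lacrimal and from 0.380 to 3.16 in submandibular pools, whereas Car6 overlapped between the glands.

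Genes of salt reabsorption were lower in lacrimal by wide margins. The lead was Fxyd2, the gamma subunit that tunes the sodium pump, with 1.85, 2.87 and 5.76 in lacrimal pools, against 180, 267 and 329 in submandibular pools. Atp1b1, the beta subunit of the same pump, had 1.28, 1.78 and 2.39 in lacrimal pools, against 62.3, 73.4 and 93.7 in submandibular pools. The differences were -6.38 ± 0.27 for Fxyd2 (adjusted p 9.78e-14) and -5.40 ± 0.15 for Atp1b1 (2.9e-16), and the pools did not overlap. Atp1b3, the beta 3 subunit, was not called (0.60 ± 0.19, adjusted p 0.0164).

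All 3 subunits of the epithelial sodium channel, the entry path for sodium in ducts, were lower in lacrimal. Scnn1a, the alpha subunit, had 0.690, 1.30 and 2.17 in lacrimal pools, against 19.98, 28.1 and 39.4 in submandibular pools (-4.51 ± 0.23, adjusted p 3.33e-12). Scnn1b, the beta subunit, had 0.184, 0.273 and 0.739 in lacrimal pools, against 5.22, 7.31 and 10.0 in submandibular pools (-4.58 ± 0.24, adjusted p 5.01e-12). Scnn1g, the gamma subunit, had 0.237, 0.328 and 0.708 in lacrimal pools, against 0.863, 1.40 and 2.14 in submandibular pools (-1.95 ± 0.24, adjusted p 1.65e-06). None of these subunits overlapped between the glands. The kinase Sgk1 (-2.15 ± 0.31, adjusted p 1.19e-05) and the ubiquitin ligase Nedd4l (-1.68 ± 0.21, adjusted p 2.8e-06), which raise and lower the channel at the membrane, were also lower in lacrimal, and the pools overlapped for Sgk1 only.

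Several genes of chloride, bicarbonate and potassium transport, of acini as well as ducts, were also lower in lacrimal. Slc12a2, the sodium-potassium-chloride cotransporter that loads acinar cells with chloride, had 2.65, 3.11 and 4.71 in lacrimal pools, against 30.5, 60.8 and 88.6 in submandibular pools (-4.13 ± 0.16, adjusted p 2.24e-14). Cftr, the chloride channel of ducts, had 0.206, 0.362 and 1.54 in lacrimal pools, against 2.24, 3.80 and 6.64 in submandibular pools (-3.18 ± 0.34, adjusted p 3.04e-07). Kcnj16, an inward-rectifier potassium channel subunit, had 0.159, 0.253 and 0.464 in lacrimal pools, against 0.838, 2.54 and 5.14 in submandibular pools, at least 5.25-fold lower in lacrimal (adjusted p 3.04e-09). The glands did not overlap for any of these. Carbonic anhydrases Car13 (-4.38 ± 0.27, adjusted p 6.08e-11) and Car2 (-2.50 ± 0.25, adjusted p 1.81e-07), which make bicarbonate inside cells, were lower in lacrimal.

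Water channels did not share that pattern. Aqp8, an aquaporin of secretory epithelia, had 30.3, 45.02 and 70.3 in lacrimal pools, against 0.0801, 0.107 and 0.199 in submandibular pools, which lay below the filter level. It was at least 141-fold higher in lacrimal (adjusted p 1.73e-14). Aqp5, the main apical water channel of acini in both glands, had 12.02, 28.2 and 38.5 in lacrimal pools, against 15.5, 23.6 and 34.2 in submandibular pools. The ranges overlapped and the difference was 0.14 ± 0.21 (adjusted p 0.649). Over the whole list of ion and water transport, 5 of 43 probes kept were higher and 17 lower in lacrimal (3 and 15 with the random block). The median was -0.70, and the shares over all probes were 11.0% higher and 8.48% lower. Among the members of this list not called were Kcnma1 (both probes), Kcnn4 and the chloride channels Clcn2, Clcn3, Clcn4 and Clcn7.

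Duct markers leaned the same way as duct transporters. Of 28 probes kept for duct markers, 1 was higher and 12 were lower in lacrimal (median -0.76), beside 11.0% and 8.48% over all probes. Krt7, a keratin of duct epithelium, had 3.24, 5.10 and 7.65 in lacrimal pools, against 35.6, 50.3 and 68.5 in submandibular pools (-3.27 ± 0.16, adjusted p 2.43e-12). Krt18, a keratin of all simple epithelia, had 34.8, 70.6 and 96.5 in lacrimal pools, against 43.5, 51.9 and 71.8 in submandibular pools (0.24 ± 0.22, adjusted p 0.421). Krt8 (0.76 ± 0.22) and Krt19 (-0.23 ± 0.30) were not called either. Epcam, an adhesion protein of epithelia in general, was lower in lacrimal, with 12.8, 25.0 and 29.9 in lacrimal pools, against 44.04, 55.04 and 64.8 in submandibular pools (-1.24 ± 0.17, adjusted p 5.86e-06).

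Transcription factors of duct cells were among the lower genes. Tfcp2l1, a factor of salt-transporting ducts, had 0.336, 0.979 and 1.18 in lacrimal pools, against 9.21, 11.3 and 17.6 in submandibular pools (-3.92 ± 0.24, adjusted p 4.17e-11). Foxi1 (-1.52 ± 0.21, adjusted p 6.11e-06) and Ascl3 (-1.82 ± 0.28, adjusted p 2.41e-05), factors of ionocyte-like duct cells, were lower in lacrimal with no overlap between glands. Pax9, a factor of pharyngeal and oral tissue, was lower as well (-2.07 ± 0.32, adjusted p 3.17e-05). The only higher member was Pax6, the eye and lacrimal gland regulator, with 8.95, 17.5 and 21.9 in lacrimal pools, against 0.304, 0.419 and 0.492 in submandibular pools (5.29 ± 0.19, adjusted p 8.51e-15). Among tight junction genes, Cldn4 was lower in lacrimal (-2.76 ± 0.42, adjusted p 3.02e-05) and Cldn10, a claudin of secretory epithelium, was not called (-0.07 ± 0.27, adjusted p 0.878).

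**Figure D2:**
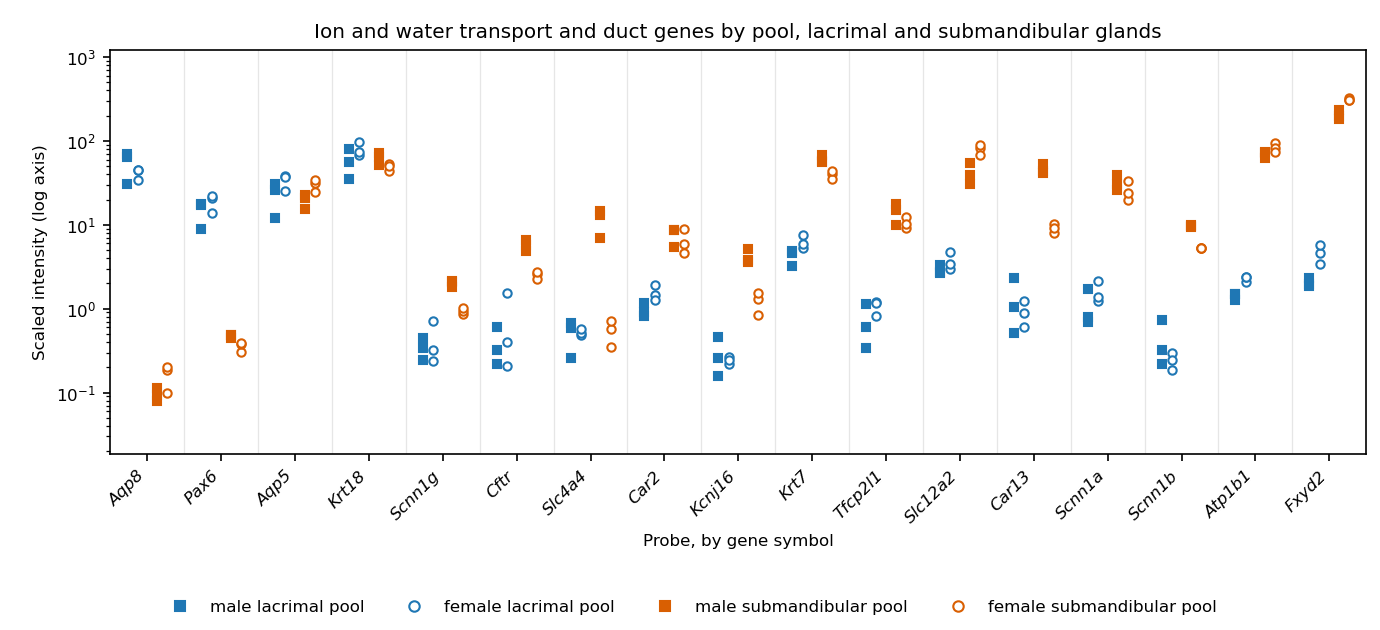
Scaled intensity of 17 transport and duct genes by pool, on a log axis, with lacrimal pools in blue at the left and submandibular pools in orange at the right of each panel; squares are male pools and open circles female pools. Aqp8 and Pax6 were higher in every lacrimal pool, Aqp5 and Krt18 overlapped, and Scnn1a, Scnn1b, Atp1b1 and Fxyd2 were lower in every lacrimal pool.

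Most probes for receptors and the calcium pathway that drives secretion were not called. Of 34 probes kept, 6 were higher and 4 lower in lacrimal and 24 were not called, with a median of 0.29. Over all probes, 11.0% were higher and 8.48% lower, so the list as a whole lay near those shares. Mc5r, the melanocortin receptor known for its role in exocrine secretion, had 2.37, 4.56 and 7.58 in lacrimal pools, against 0.375, 0.533 and 0.690 in submandibular pools (3.02 ± 0.28, adjusted p 3.94e-08). Tacr1, a substance P receptor, was at least 1.40-fold higher in lacrimal (adjusted p 1.02e-05), where submandibular pools lay below the filter level. On the lower side, Atp2a3, a calcium pump of the endoplasmic reticulum, had 0.214, 0.309 and 0.493 in lacrimal pools, against 5.43, 9.94 and 13.0 in submandibular pools (-4.82 ± 0.34, adjusted p 4.84e-10). Itpr2, the calcium release channel of acinar cells, was lower in lacrimal by -2.49 ± 0.22 (adjusted p 1.64e-08). The kinase Prkcd (-2.15 ± 0.16, adjusted p 1.24e-09) and the cyclase Adcy6 (-1.74 ± 0.18, adjusted p 1.99e-07) were lower too, each without overlap. The G protein subunits Gnaq, Gna11 and Gna14 were not called.

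Steroid-metabolising genes were called in both directions, with 7 of 24 probes kept higher and 3 lower in lacrimal and a median of 0.94. The shares over all probes were 11.0% higher and 8.48% lower. Akr1c18, which inactivates progesterone, had 9.30, 39.9 and 131 in lacrimal pools, against 0.0244, 0.166 and 0.319 in submandibular pools, at least 117-fold higher in lacrimal (adjusted p 5.46e-11). Hsd17b4, a peroxisomal enzyme of fatty acid and steroid oxidation, was higher in lacrimal with no overlap (1.91 ± 0.22, adjusted p 5.09e-07). Hsd11b1, which makes active glucocorticoid, had 0.344, 0.538 and 1.62 in lacrimal pools, against 3.95, 6.62 and 13.6 in submandibular pools (-3.40 ± 0.33, adjusted p 5.7e-08). Fkbp5, a chaperone of steroid receptors that androgens and glucocorticoids induce, was higher in lacrimal (1.57 ± 0.26, adjusted p 8.36e-05), and its pools overlapped. Esr2, an oestrogen receptor (0.84 ± 0.19, adjusted p 0.00174), and Nr3c1, the glucocorticoid receptor (0.19 ± 0.29, adjusted p 0.643), were not called. The androgen receptor gene was not analysed here.

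The machinery that makes and folds secreted protein leaned toward lacrimal. Of 38 probes kept for translocation and folding in the endoplasmic reticulum, 9 were higher and 1 lower, with a median of 0.75 (0.54 after quantile normalization, with 6 higher). For comparison, 11.0% of all probes were higher and 8.48% lower. Sdf2l1, a folding cofactor, had 49.7, 67.2 and 104 in lacrimal pools, against 18.9, 23.2 and 27.6 in submandibular pools (1.64 ± 0.19, adjusted p 9.3e-07). Pdia5, a disulphide isomerase (1.71 ± 0.25, adjusted p 1.79e-05), and Srprb, a subunit of the signal recognition particle receptor (1.5 ± 0.19, adjusted p 2.63e-06), were higher in lacrimal without overlap. Agr2, a disulphide isomerase of mucus-secreting cells, had 279, 361 and 460 in lacrimal pools, against 4.29, 9.84 and 20.3 in submandibular pools (5.14 ± 0.21, adjusted p 9.78e-14). Spdef, a transcription factor of mucus-secreting cells, went the other way (-1.68 ± 0.24, adjusted p 9.6e-06). Rab3d, a GTPase of secretory granules, was higher in lacrimal (1.67 ± 0.32, adjusted p 0.000373), within a list of vesicle traffic in which 2 of 27 probes were higher and 4 lower (median -0.05; 2 and 2 with the random block).

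Glycan genes moved in both directions. Of 37 probes kept, 6 were higher and 9 lower in lacrimal, with a median of -0.02 (-0.37 after quantile normalization). The shares over all probes were 11.0% higher and 8.48% lower. Chst2, a sulphotransferase of carbohydrate chains, had 394, 276 and 320 in male and 40.9, 13.5 and 17.3 in female lacrimal pools, against 0.864, 1.22 and 1.16 in male and 0.887, 0.797 and 1.01 in female submandibular pools (6.41 ± 0.21, adjusted p 3.65e-15). St3gal4, a sialyltransferase, had 0.362, 0.966 and 0.369 in male and 0.506, 0.346 and 0.511 in female lacrimal pools, against 12.03, 8.34 and 19.4 in male and 70.3, 62.1 and 78.8 in female submandibular pools (-5.96 ± 0.28, adjusted p 1.69e-12). Each enzyme was thus high in one gland and differed between the sexes of that gland.

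Markers of other cell types moved with some of these groups. Adipocyte markers were lower in lacrimal at 8 of 11 probes kept (median -2.18), where 8.48% of all probes were lower and 11.0% higher. The summed level of adipocyte markers was 8.05 to 33.7 on lacrimal and 81.5 to 200 on submandibular arrays. Adipoq, the fat hormone adiponectin, had 0.917, 2.83 and 7.10 in lacrimal pools, against 14.4, 23.3 and 35.1 in submandibular pools (-3.18 ± 0.32, adjusted p 1.22e-07). Myoepithelial and smooth muscle markers were lower at 4 of 10 probes (median -0.64), with summed levels of 26.8 to 41.7 on lacrimal and 44.5 to 236 on submandibular arrays. Skeletal muscle markers were lower at 8 and higher at 2 of 24 probes (median -0.45; 6 and 1 with the random block), with summed levels of 10.4 to 32.1 on lacrimal and 12.4 to 45.8 on submandibular arrays. The part of these cells in the gland differences was not tested.

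Immune and neural markers moved gene by gene. Cd4, a T helper cell coreceptor, had 3.07, 4.24 and 7.51 in lacrimal pools, against 1.08, 1.33 and 1.63 in submandibular pools (1.70 ± 0.25, adjusted p 1.57e-05). Cd22, a B cell lectin, had 0.618, 0.639 and 0.957 in lacrimal pools, against 3.26, 5.47 and 14.6 in submandibular pools (-3.20 ± 0.38, adjusted p 1.24e-06). Over their lists, 1 T cell marker was higher and 1 lower of 10, and 2 B and plasma cell markers were higher and 1 lower of 12. With the random block these were 1 and 0 for T cells and 1 and 1 for B and plasma cells. The T cell median of 0.34 became -0.15 after quantile normalization. Macrophage markers had 1 lower of 15, Cd14 (-2.15 ± 0.32, adjusted p 1.97e-05). Since 11.0% of all probes were higher and 8.48% lower, the T cell, B cell and macrophage lists lay near those shares. Sox10, a factor of glia, myoepithelial cells and acini, was lower in lacrimal (-2.53 ± 0.14, adjusted p 9.9e-12). Among markers of eye, Harderian and sebaceous tissue, 4 of 11 were higher in lacrimal, with summed levels of 20.8 to 39.0 on lacrimal and 12.4 to 16.4 on submandibular arrays. Among them were the pigment protein Pmel, with 1.02, 1.61 and 7.88 in lacrimal pools, against 0.188, 0.283 and 0.421 in submandibular pools, and the chaperone Cryab (2.23 ± 0.31, adjusted p 9.79e-06). The pigment enzyme Dct and the lens crystallin Crygd were not called.

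**Figure D3:**
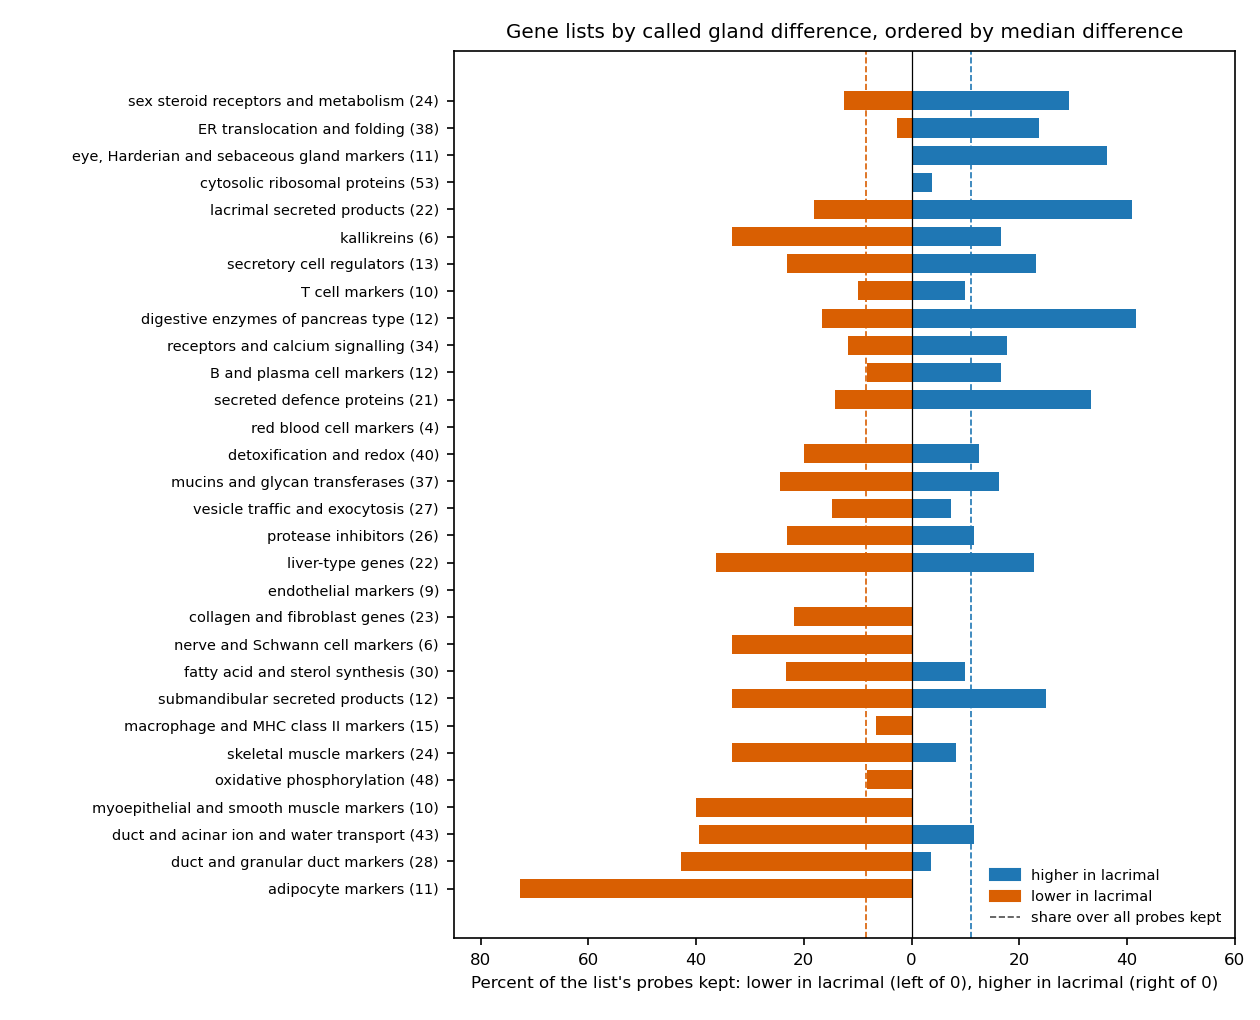
Share of the probes kept in each gene list that were called higher in lacrimal (bars to the right) or lower in lacrimal (bars to the left), in percent; dashed lines mark the shares over all 8211 probes, 11.0% higher and 8.48% lower. Adipocyte markers, ion and water transport and duct markers extended past the lower line, and translocation and folding in the endoplasmic reticulum extended past the higher one.

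A second question was whether the gland difference was the same in both sexes. In males 930 probes (11.3% of 8211) were higher and 740 (9.01%) lower in lacrimal. In females 705 (8.59%) were higher and 590 (7.19%) lower. Of the 901 probes higher over both sexes, 883 had that sign in each sex and 421 were called in each. Of the 696 lower ones, 688 had the same sign and 398 were called in each sex. The direct test, the sex difference in lacrimal minus that in submandibular (male minus female within each gland), called 282 probes (3.43%), of which 145 were higher (1.77%) and 137 lower (1.67%) at an adjusted p under 0.05. With gland and pool letter as a random block these counts were 432 and 501, and with the fixed block 140 and 129. Among the 145, the sex difference itself was called in lacrimal alone for 113, in submandibular alone for 15, in both for 6 and in neither for 11. Among the 137, it was called in lacrimal alone for 62, in submandibular alone for 60, in both for 5 and in neither for 10.

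**Figure D4:**
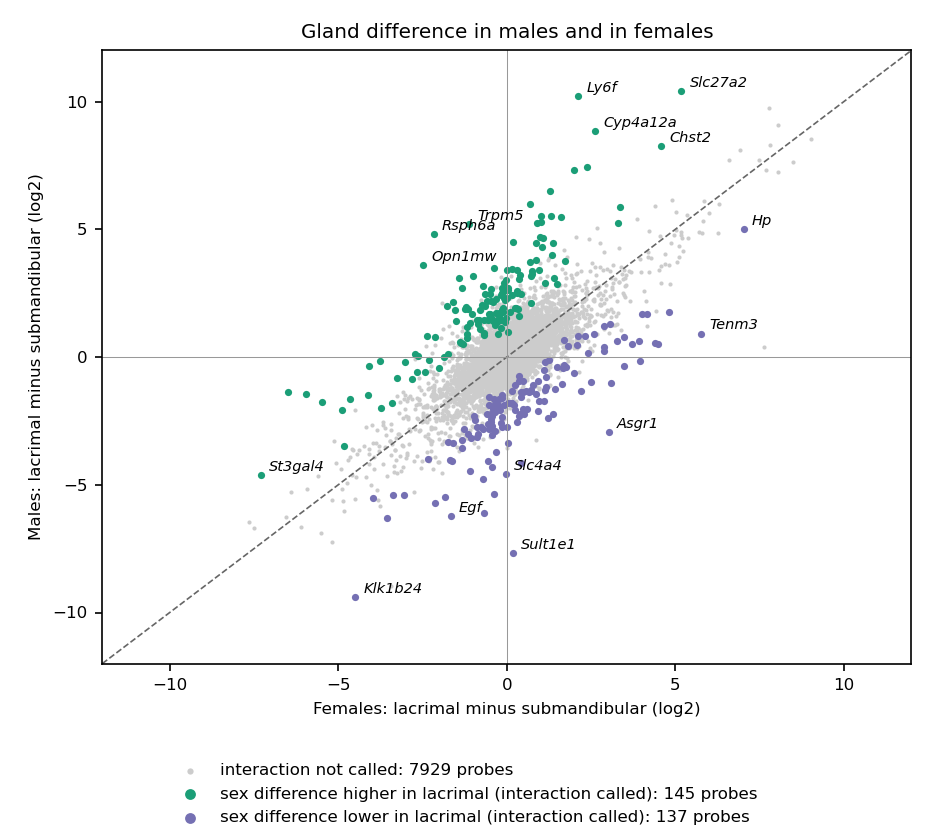
Lacrimal minus submandibular difference on the log2 scale in females (horizontal axis) and in males (vertical axis) for each of the 8211 probes; the dashed line marks equal differences. Green points are the 145 probes called higher and purple points the 137 called lower for the difference between the sexes; the remaining 7929 are grey.

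Probes called higher were led by genes of male lacrimal glands. Ly6f, a small surface protein of the Ly6 family, had 273, 104 and 138 in male and 1.79, 0.482 and 0.739 in female lacrimal pools, against 0.0967, 0.214 and 0.115 in male and 0.227, 0.201 and 0.176 in female submandibular pools. Male lacrimal pools stood far above every other pool, and the submandibular gland lay below the filter level in both sexes. The sex difference was 7.52 ± 0.42 in lacrimal (adjusted p 3.92e-10). The fitted gap of 8.10 (adjusted p 4.11e-08) is no exact size, since a sex difference in submandibular could not be measured at that level. The same limit holds for the fitted values of Slc27a2, Opn1mw, Cyp2b10, Tenm3 and Klk1b24, each of which had 1 or more groups of sex and gland below the filter level. Slc27a2, a fatty acid transporter and activating enzyme, had 295, 158 and 265 in male and 8.68, 4.15 and 10.9 in female lacrimal pools, against 0.320, 0.176 and 0.0882 in male and 0.170, 0.158 and 0.307 in female submandibular pools (gap 5.23 ± 1.04, adjusted p 0.00392). Cyp4a12a, a male-biased fatty acid hydroxylase of mouse liver and kidney, had 328, 129 and 234 in male and 3.20, 2.45 and 3.30 in female lacrimal pools, against 0.790, 0.862 and 0.154 in male and 0.402, 0.838 and 0.343 in female submandibular pools (gap 6.23 ± 0.79, adjusted p 5.24e-05). For each of these, female lacrimal pools also lay above the female submandibular pools.

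Other probes in this direction had opposite sex differences in the glands or a female-high submandibular level. Trpm5, a cation channel of taste cells, had 28.2, 17.4 and 15.7 in male and 0.901, 0.917 and 1.23 in female lacrimal pools, against 0.533, 0.670 and 0.436 in male and 1.502, 2.92 and 2.41 in female submandibular pools. It was male-high in lacrimal (4.29 ± 0.32, adjusted p 1.59e-08) and female-high in submandibular (-2.03 ± 0.32, adjusted p 0.000452). The probe of Opn1mw, a cone opsin, showed the same reversal at lower levels, with 2.72 ± 0.57 in lacrimal and -3.37 ± 0.57 in submandibular (gap 6.08 ± 0.81, adjusted p 7.83e-05). For the sialyltransferases St3gal1 and St3gal4 the sex difference was called in submandibular and not in lacrimal. St3gal1 had 0.692, 2.82 and 0.535 in male and 0.488, 0.825 and 0.862 in female lacrimal pools, against 1.23, 1.35 and 1.33 in male and 11.8, 7.48 and 18.9 in female submandibular pools. The gaps were 3.71 ± 0.68 for St3gal1 (adjusted p 0.00197) and 2.66 ± 0.55 for St3gal4 (0.00681), beside 3.69 ± 0.42 for Chst2 (1.77e-05), whose sex difference lay in lacrimal. Other sialyltransferases were male-high in both glands: St3gal5 by 4.03 ± 0.33 in lacrimal and 2.18 ± 0.33 in submandibular (gap 1.85, adjusted p 0.025), and St6galnac2 by 2.19 ± 0.37 and 3.57 ± 0.37 (gap not called, adjusted p 0.211).

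Probes called lower included genes of male submandibular glands, several of them duct products. Egf and Klk1b24, whose pools are given above, had sex differences of 3.83 ± 0.50 and 4.96 ± 0.46 in submandibular, against -0.75 ± 0.50 and 0.07 ± 0.57 in lacrimal. Their gaps were -4.57 ± 0.71 for Egf (adjusted p 0.000391) and -4.89 ± 0.73 for Klk1b24 (0.000657). Klk1b5 had no called sex difference in submandibular (-0.54 ± 1.04, adjusted p 0.983) and no called gap (-2.04 ± 1.47, adjusted p 0.711). Its standard errors come from the spread over all groups, and its lacrimal pools varied far more than its submandibular ones. The fit therefore had little power to call a sex difference in submandibular for this probe. Smr2, a submandibular androgen-regulated protein, had 2.97 and 2.65 in male and 2.15 and 1.66 in female lacrimal pools A and B, against 126 and 46.3 in male and 3.06 and 3.17 in female submandibular pools, with pool C missing throughout. Its gap was -4.05 ± 0.57 (adjusted p 0.0011). Sult1e1, which inactivates oestrogens, had 0.947, 0.310 and 0.408 in male and 0.608, 0.391 and 0.289 in female lacrimal pools, against 140, 89.7 and 83.2 in male and 0.777, 0.208 and 0.292 in female submandibular pools. Male submandibular pools alone were high, and the gap was -7.87 ± 0.83 (adjusted p 6.74e-06).

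Transporters of the submandibular gland were also among these probes. Slc4a4, the basolateral sodium-bicarbonate cotransporter, had 0.582, 0.258 and 0.668 in male and 0.479, 0.512 and 0.566 in female lacrimal pools, against 13.2, 14.7 and 7.005 in male and 0.579, 0.720 and 0.350 in female submandibular pools. Its gland difference was -4.58 in males and -0.02 in females, and the gap was -4.55 ± 0.68 (adjusted p 0.000271). Car13 was lower in lacrimal in each sex (-5.40 in males and -3.37 in females), and its gap of -2.03 ± 0.54 (adjusted p 0.0399) was lost when any of 10 of the 12 pools was left out (all but male lacrimal B and female lacrimal B). Over all 12 pools left out in turn, its gap was -2.59 to -1.501 and its adjusted p 0.00112 to 0.117. Scnn1a, Scnn1b, Scnn1g, Cftr, Slc12a2, Atp1b1 and Fxyd2 had no called gap.

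Genes that were high in female lacrimal glands were called in this direction too. Asgr1, a subunit of the liver asialoglycoprotein receptor, had 0.488, 1.40 and 0.888 in male and 77.7, 36.9 and 31.3 in female lacrimal pools, against 6.66, 6.31 and 6.56 in male and 5.86, 5.599 and 5.15 in female submandibular pools. Male lacrimal pools lay below all submandibular pools and female ones above them, so the gland difference over both sexes was 0.04 ± 0.24 (adjusted p 0.919) while the gap was -5.96 ± 0.48 (adjusted p 1.52e-07). Tenm3, a synaptic adhesion protein, had 0.415, 0.616 and 0.564 in male and 25.3, 14.1 and 15.8 in female lacrimal pools, against 0.290, 0.252 and 0.293 in male and 0.529, 0.121 and 0.543 in female submandibular pools (gap -4.86 ± 0.57, adjusted p 2.32e-05). Postn, a matrix protein of connective tissue, was female-high in lacrimal (-1.27 ± 0.24) and male-high in submandibular (1.32 ± 0.24), with a gap of -2.60 ± 0.34 (adjusted p 7.83e-05).

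**Figure D5:**
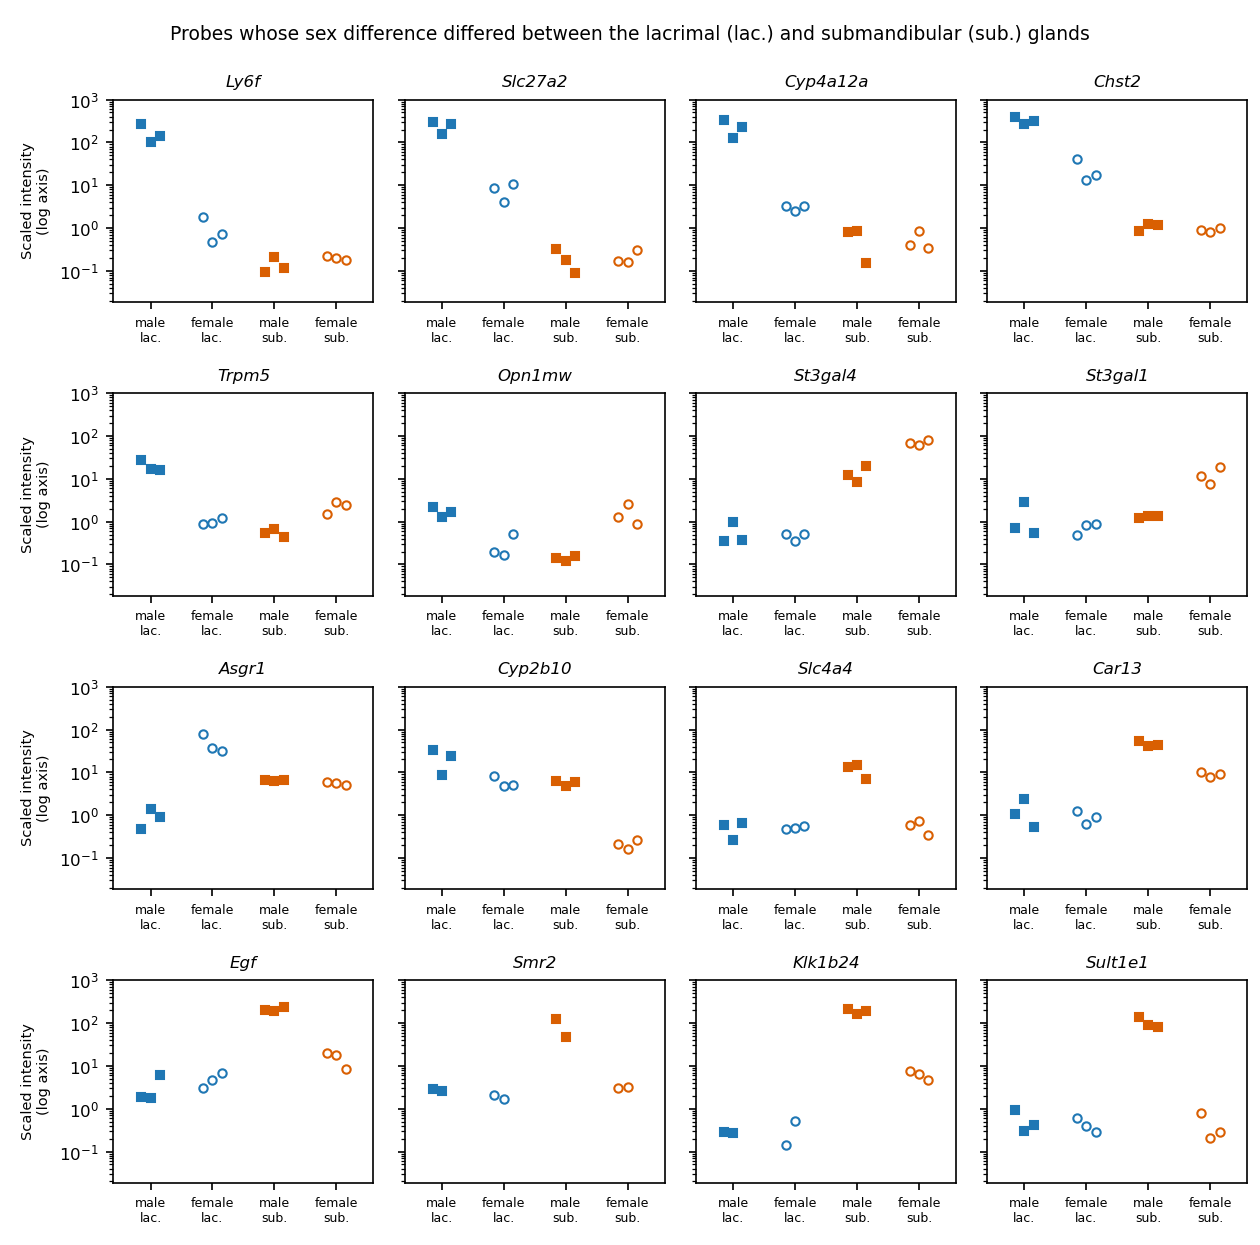
Scaled intensity of 16 genes with a called difference between the sex differences of the glands, by pool on a log axis, in the order male lacrimal, female lacrimal, male submandibular, female submandibular. Ly6f, Slc27a2 and Cyp4a12a were highest in male lacrimal pools, Asgr1 in female lacrimal pools, Sult1e1, Slc4a4, Egf and Klk1b24 in male submandibular pools, and St3gal1 and St3gal4 in female submandibular pools.

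Part of the sex differences was shared by both glands. A sex difference was called for 444 probes in lacrimal (5.41%), of which 238 (2.90%) were male-high and 206 (2.51%) female-high. In submandibular it was called for 213 (2.59%), of which 158 (1.92%) were male-high and 55 (0.670%) female-high. A total of 37 were called in both. They made up 8.33% of the lacrimal calls, beside the 2.59% of all probes called in submandibular. They made up 17.4% of the submandibular calls, beside the 5.41% of all probes called in lacrimal. Of the 37, 29 had the same direction and 8 the opposite. Mdk, the growth factor midkine, was male-high in both, by 5.35 ± 0.44 in lacrimal and 3.56 ± 0.44 in submandibular. Fkbp5 had 15.6, 7.32 and 13.1 in male and 2.15, 1.69 and 3.85 in female lacrimal pools, against 2.25, 2.64 and 4.25 in male and 1.06, 1.18 and 0.965 in female submandibular pools. It was male-high by 2.25 ± 0.37 in lacrimal and 1.46 ± 0.37 in submandibular, and its gap was not called (adjusted p 0.669). Cyp2b10, a steroid and drug hydroxylase, was male-high in both but by more in submandibular (1.73 ± 0.40 in lacrimal, 4.78 ± 0.40 in submandibular, gap -3.05 ± 0.57, adjusted p 0.0024). The opposite set included Trpm5, Opn1mw, Postn and the lipid synthesis genes Scd1 and Sc5d.

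Several of the largest gland differences fell on probes whose annotated genes are not known as gland products. The probe named for Th, tyrosine hydroxylase of catecholamine neurons, had 0.759, 1.25 and 1.98 in lacrimal pools, against 140, 173 and 216 in submandibular pools (-7.10 ± 0.23, adjusted p 2.82e-15). The probe named for Mymk, a membrane activator of myoblast fusion, had 0.960, 1.47 and 2.74 in lacrimal pools, against 136, 213 and 352 in submandibular pools (-7.05 ± 0.34, adjusted p 1.28e-12). The probe named for Fgf5 had 2.31, 3.598 and 4.15 in lacrimal pools, against 212, 286 and 397 in submandibular pools (-6.40 ± 0.20, adjusted p 1.58e-15). All pools of each gland lay far from those of the other. The Th and Fgf5 probes were also bright in sublingual glands, at 24.7 and 84.9 in males and 88.5 and 178 in females. On the higher side, Anxa8, an annexin of epithelia, had 85.1, 156 and 356 in lacrimal pools, against 0.263, 0.301 and 1.12 in submandibular pools (8.77 ± 0.34, adjusted p 3.59e-14), and the probe named for Bcl6b, a transcriptional repressor, had 128, 228 and 330 in lacrimal pools, against 0.590, 0.944 and 2.41 in submandibular pools (7.66 ± 0.32, adjusted p 1.11e-13). What these probes read was not tested beyond their annotation.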

How the data were processed

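Messenger RNA of 5 exocrine glands of BALB/c mice was measured on 26 arrays, of which the 12 lacrimal and submandibular arrays are compared here. The authors deposited a table of linear scaled intensity values of 10500 probes. No source used here states how these values were made, and the platform and labelling are not given in the sources used here. Read from the values, arrays were scaled to like medians (0.928 to 0.955) and a background was subtracted. Cells of exactly -1 were taken as missing, which is 1108 cells (0.879%) on 522 probes of the 12 arrays.

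The deposited intensities below 0.02337, the 1st percentile of the positive values, were set to that floor, and all were put on the log2 scale, with no further normalization. Probes had to lie at or above their array's 30th percentile throughout the measured arrays (at least 2) of some group among the 10 of sex and gland. That left 8211 probes, 7260 of them with 1 gene symbol (7156 genes). Of all probes, 8983 had 1 symbol, 1 several and 1516 none, per the platform annotation, and 8975 matched RefSeq. The model, fitted with limma 3.58.1 under R 4.3.3, held a mean for each of the 10 groups over all 26 arrays (16 residual and 4.114 prior degrees of freedom) and Benjamini-Hochberg adjustment within each comparison. The other glands entered only to estimate the spread. The fit was checked on simulated data with independent noise and, for each probe, the same spread in every group. That check did not cover the shared deviations of pool letters or the unequal spread of the glands. Pools are separate groups of animals, so p-values cover the spread between pools. The number of arrays limits the precision.

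Named genes are the 15 highest and 15 lowest non-overlapping gland calls with a symbol, 8 calls per direction for the difference between sexes, members of 7 lists, and up to 4 called members of each other list. The genes whose sex difference was called in both glands (Mdk, Scd1, Sc5d, St3gal5, St6galnac2) were named after their values were seen. The 30 lists, the members and the tests were chosen with earlier results of these data known. Lists are described by counts and medians, beside 11.0% higher, 8.48% lower and a median of 0.148 over all probes.

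Pool letters were checked by correlating deviations from group means over 7555 probes without missing cells. Arrays of the same letter and sex in the other gland had r of 0.217 to 0.500 in all 6 pairs, so the letter was taken to pair the pools. Same-letter arrays of the other sex had r of 0.441 to 0.713 in the same gland and 0.152 to 0.551 in the other gland. The letters were thus shared between the sexes too, whereas the fixed block fits them separately in each sex. Arrays of different letters had r of -0.483 to 0.0878. Centring each group on its mean pulls these values down, so they are no separate sign of pairing. The model above has no letter term. Fits with the letter within sex as a fixed block, or with gland and letter as a random block, are alternatives. What a letter stands for was not given in the sources used here. Promoters were searched and aligned with Biopython 1.88 in Python 3.11.15, and figures drawn with matplotlib 3.10.9. Alternatives were other floors, filters, normalizations, fits, blocks and left-out pools.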

Additional observations from a re-analysis of the deposited data

Results flagged for a closer look

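The sex difference in lacrimal differed from that in submandibular, by limma's test of the difference itself, for 32 of the genes named by rule. Values below are the male minus female difference in lacrimal minus that in submandibular, on the log2 scale, with n = 3 pools per sex and gland, except Smr2 (pool C missing throughout) and Klk1b24 (lacrimal pool B missing in both sexes). For Ly6f in submandibular and for Pvalb and Hsd17b3 in lacrimal, both sexes lay below the filter level, so the sex difference there could not be measured and the fitted gap is no exact size. For Pvalb, Hsd17b3, Cyp2b10 and Slc27a2 in female submandibular, F2rl3 and Tenm3 in male submandibular, Klk1b24 in male lacrimal, and Opn1mw in female lacrimal and male submandibular, the level was also below it.

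Positive gaps were 8.10 for Ly6f, 6.98 for Rsph6a (a radial spoke protein of cilia), 6.32 for Trpm5, 6.23 for Cyp4a12a, 6.08 for Opn1mw, 5.32 for Olfr140 (an odorant receptor), 5.23 for Slc27a2 and 5.19 for F2rl3 (a thrombin receptor). The sex difference of each of these was called male-high in lacrimal. Smaller positive gaps were 3.71 for St3gal1, 3.69 for Chst2, 2.66 for St3gal4, 2.63 for Fabp5 (a fatty acid carrier, female-high in submandibular), 2.59 for Csn3 (a casein) and 2.42 for Crisp2.

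Negative gaps of genes that were male-high in submandibular were -7.87 for Sult1e1, -5.01 for Hsd17b3 (a testosterone-making enzyme), -4.89 for Klk1b24, -4.58 for Pvalb (a calcium buffer of muscle and neurons), -4.57 for Egf, -4.55 for Slc4a4, -4.05 for Smr2, -3.05 for Cyp2b10, -2.24 for Cnn1 (a smooth muscle protein), -2.03 for Car13 and -1.57 for Stx7 (a fusion protein of endosomes). Those of genes that were female-high in lacrimal were -5.96 for Asgr1, -4.86 for Tenm3, -2.60 for Postn, -2.13 for Mgp (matrix Gla protein), -2.01 for Hp and -1.89 for Cldn8 (a duct claudin). Myh11, smooth muscle myosin, had -1.97, with no sex difference called in either gland.

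Of the 32, 24 kept their call when any single pool was left out, and 16 kept it under every alternative. The call of Hp was lost without female submandibular B, male submandibular A, female lacrimal A or male lacrimal B (-2.40 to -1.65 over the left-out pools, adjusted p up to 0.0881). That of Hsd17b3 was lost without female submandibular B, male submandibular A, female lacrimal A or male lacrimal C (-5.79 to -4.04, up to 0.0619). That of Cldn8 was lost without female submandibular B, male submandibular A or female lacrimal A (-2.21 to -1.57, up to 0.0652), and that of Stx7 without female submandibular B or male submandibular A (-1.77 to -1.30, up to 0.0594). Those of Csn3 (2.10 to 2.99), Cnn1 (-2.55 to -1.87) and Myh11 (-2.36 to -1.51) were lost without any of 8, 7 and 6 pools, and that of Car13 without any of 10.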

How the results depend on the processing

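Without a minimum difference 1778 probes were higher and 1235 lower in lacrimal, and without the filter 1599 were higher and 694 lower. The difference between the sexes moved with the model. With the 12 arrays alone 75 probes were higher and 60 lower, and with pools B and C alone 41 and 37. Both of these settings rest on fewer arrays. With gland and pool letter as a random replicate block the counts were 432 and 501 (block correlation 0.563). Without both lacrimal pools C, an alternative chosen after seeing the data, they were 146 and 119. Leaving out each pool in turn gave 826 to 991 higher and 669 to 722 lower over both sexes, 788 to 1071 and 632 to 772 in males, 610 to 729 and 483 to 628 in females, and 115 to 176 and 93 to 167 for the difference between the sexes. Of the 1597 gland calls, 1577 kept their direction and call with the letter within sex as a fixed replicate block. The numbers were 1373 with gland and letter as a random block, 1329 after quantile normalization and 1352 without both lacrimal pools C. Of the 282 calls for the difference between the sexes, the numbers were 251, 282, 263 and 225. Of the 164 gland calls among named genes, 125 were lost under no alternative. Cox5a, a subunit of cytochrome oxidase, reversed to 0.27 with missing cells at the floor, against -1.06 as reported. The fixed block ended the calls for the difference between the sexes of Car13 (adjusted p 0.0639; range over 25 alternatives 0.00112 to 0.511) and Cnn1 (0.0733; 0.000329 to 0.844). Low probes are limited by signal over background: 176 higher calls have the submandibular gland below the filter level.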

Other observations

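Protease inhibitors, liver-type genes and detoxifying enzymes had calls in both directions, beside 11.0% higher and 8.48% lower over all probes. Of 26 protease inhibitors kept, 3 were higher and 6 lower in lacrimal (median -0.19). Serpinb1a, an inhibitor of neutrophil proteases, had 0.580, 0.742 and 2.06 in lacrimal pools, against 6.61, 26.7 and 61.1 in submandibular pools (lowest, median, highest; -4.70 ± 0.28, limma adjusted p 2.43e-11). Serpinb6b had 0.511, 0.831 and 1.56 in lacrimal pools, against 6.03, 11.95 and 28.3 in submandibular pools (-3.81 ± 0.21, adjusted p 8.53e-12), so the glands did not overlap for either serpin. Of 22 liver-type genes, 5 were higher and 8 lower (median -0.27), among them the clotting factor F9 (-3.80 ± 0.33, adjusted p 1.05e-08) and Pck1, an enzyme of glucose synthesis (-3.30 ± 0.39, adjusted p 9.68e-07). Of 40 detoxification and redox genes, 5 were higher and 8 lower (median -0.01). Gsta3, a glutathione transferase, had 15.7, 51.7 and 101 in lacrimal pools, against 1.19, 1.79 and 3.46 in submandibular pools (4.52 ± 0.30, adjusted p 1.77e-10). Aldh1a1, a retinaldehyde dehydrogenase, had 1.14, 1.94 and 2.92 in lacrimal pools, against 9.15, 11.8 and 18.4 in submandibular pools (-2.74 ± 0.21, adjusted p 2.43e-09).

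Digestive enzymes known from the pancreas were measured in both glands. Of 12 kept, 5 were higher and 2 lower in lacrimal (median 0.32), beside 11.0% and 8.48% over all probes. With gland and pool letter as a random block 2 were higher and 1 lower. Cpb1, a carboxypeptidase, had 1.51, 4.82 and 8.27 in lacrimal pools, against 0.0510, 0.138 and 0.192 in submandibular pools, at least 11.8-fold higher in lacrimal (adjusted p 3.04e-08). Pnliprp1, a pancreatic lipase relative, had 1.32, 53.8 and 0.725 in male and 558, 451 and 558 in female lacrimal pools, against 2.95, 3.87 and 1.98 in male and 0.365, 0.571 and 84.6 in female submandibular pools A, B and C. Female submandibular pool C and male lacrimal pool B stood apart from the others of their group. All female lacrimal pools lay above the female submandibular ones, whereas male lacrimal pools A and C lay below every male submandibular pool. The difference over both sexes thus averages unlike values. It was 4.02 ± 1.03 (adjusted p 0.00439), 5.28 without female submandibular pool C and 3.06 without male lacrimal pool B. It was not called with the random block (adjusted p 0.0757; range over 25 alternatives 9.72e-06 to 0.117).

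Few respiratory chain genes were called, all of them lower in lacrimal, and lipid genes moved in both directions. Of 48 oxidative phosphorylation probes, 4 were lower (14 after quantile normalization), with a median of -0.45. Among all probes 11.0% were higher and 8.48% lower, so the 4 lower calls lay near the share over all probes. The muscle and brown fat isoform Cox8b had 0.227, 0.464 and 0.606 in lacrimal pools, against 8.54, 12.2 and 27.1 in submandibular pools (-5.03 ± 0.35, adjusted p 4.11e-10), and Cox7a1, of the same tissues, had -3.83 ± 0.35 (adjusted p 2.49e-08). Adipocyte markers were lower in the same pools, and their part in these values was not tested. Of 30 fatty acid and sterol genes, 3 were higher and 7 lower (median -0.35), with the fatty acid carrier Fabp4 at -3.41 ± 0.36 (adjusted p 2.11e-07) and Me1, which supplies reducing power for lipid synthesis, at 2.19 ± 0.23 (adjusted p 2.37e-07). Of 53 ribosomal protein probes, 51 had a positive sign, 2 were called higher, and the median of 0.63 became 0.09 after quantile normalization. The secreted defence list had 7 higher and 3 lower of 21, and its median of 0.27 became -0.19 after quantile normalization.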
